A study of Mus musculus with 2 samples.

Results

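The 9 genes described here are the non-clustered protocadherins Pcdh1, Pcdh7, Pcdh8, Pcdh9, Pcdh10, Pcdh15, Pcdh17, Pcdh18 and Pcdh20, out of 21938 protein-coding genes on 21 mouse chromosomes. They were taken from a list of names. Their gene bodies came from the GENCODE M21 annotation of the mm10 build, with 10 kb added to each side. DNase-seq was carried out on frontal cortex of female B6CASTF1/J mice aged 36 days, F1 animals of a B6 by CAST cross. The labels give 1 group of 2 biological replicates with no treatment or other genotype. Both carry the same donor label on separate tissue records, and the sources used here do not say whether these were separate animals. The enzyme DNase I cuts chromatin preferentially at open sites, and peaks are the regions where cuts pile up. The deposited peaks do not separate the B6 and CAST alleles. With 1 group and 2 libraries there is no test between conditions, and every difference below is a description of these libraries.

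Protocadherins are transmembrane adhesion proteins of the cadherin superfamily. The clustered genes lie in tandem arrays and diversify neuronal surfaces, whereas the non-clustered genes are scattered and are known for roles in axon growth, synapse formation and synapse elimination. Delta-1 protocadherins (Pcdh1, Pcdh7 and Pcdh9 here) carry a cytoplasmic motif that binds protein phosphatase 1. Delta-2 protocadherins (Pcdh8, Pcdh10, Pcdh17 and Pcdh18 here) have shorter tails, and Pcdh10 and Pcdh17 recruit the actin-regulating WAVE complex. Pcdh15 stands apart from both groups. It forms the tip link of inner ear hair cells together with cadherin 23.

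The members differ widely in length. Pcdh8 spans 4.54 kb at chr14:79766775-79771312 and Pcdh20 spans 6.65 kb at chr14:88464743-88471396, both on the minus strand. Pcdh18 covers 14.0 kb at chr3:49743296-49757325 on the minus strand. Pcdh10 (chr3:45378398-45435623, 57.2 kb), Pcdh17 (chr14:84443563-84539002, 95.4 kb) and Pcdh7 (chr5:57717967-58133230, 415 kb) are on the plus strand. Pcdh9 covers 877 kb at chr14:93013410-93890679 on the minus strand, and Pcdh15 covers 1550 kb at chr10:73099342-74649737 on the plus strand.

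The promoters of Pcdh8, Pcdh9, Pcdh10 and Pcdh17 had the highest promoter signals among the members, so their accessible sequence is shown. It is the part of the replicate 1 promoter peak upstream of the most upstream annotated start, cut at 300 bases. The Pcdh9 peak extends further upstream. In replicate 2 the Pcdh10 promoter peak was narrower, at chr3:45378301-45378360. It runs 5' to 3' along the gene, on mm10. Capitals mark bases inside a footprint, a short protected stretch within open chromatin, of either replicate. The coordinates are chr14:79771313-79771440 (minus strand) for Pcdh8, chr14:93890680-93890979 (minus) for Pcdh9, chr3:45378161-45378397 (plus) for Pcdh10 and chr14:84443321-84443562 (plus) for Pcdh17.
Pcdh8 promoter: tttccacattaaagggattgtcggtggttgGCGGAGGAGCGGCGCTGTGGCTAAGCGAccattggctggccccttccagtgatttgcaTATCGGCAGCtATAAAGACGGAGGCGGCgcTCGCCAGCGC
Pcdh9 promoter: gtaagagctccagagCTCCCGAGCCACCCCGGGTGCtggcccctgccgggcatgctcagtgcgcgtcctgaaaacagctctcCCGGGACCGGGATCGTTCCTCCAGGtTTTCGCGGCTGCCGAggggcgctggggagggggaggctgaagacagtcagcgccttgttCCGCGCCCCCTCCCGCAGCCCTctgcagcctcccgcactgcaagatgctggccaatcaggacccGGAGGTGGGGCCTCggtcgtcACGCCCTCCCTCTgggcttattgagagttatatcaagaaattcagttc
Pcdh10 promoter: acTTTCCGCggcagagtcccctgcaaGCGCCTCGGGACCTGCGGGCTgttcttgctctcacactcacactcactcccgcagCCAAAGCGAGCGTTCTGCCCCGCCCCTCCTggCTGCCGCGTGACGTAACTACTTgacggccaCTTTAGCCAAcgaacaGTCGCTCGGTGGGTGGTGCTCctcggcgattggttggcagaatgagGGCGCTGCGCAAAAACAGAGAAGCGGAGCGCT
Pcdh17 promoter: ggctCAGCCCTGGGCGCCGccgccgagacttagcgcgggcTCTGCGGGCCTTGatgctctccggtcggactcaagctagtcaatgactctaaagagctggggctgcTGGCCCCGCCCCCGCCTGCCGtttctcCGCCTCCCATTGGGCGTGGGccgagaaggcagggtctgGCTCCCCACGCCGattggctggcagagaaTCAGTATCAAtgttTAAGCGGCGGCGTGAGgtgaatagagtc

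Footprints of replicate 1 covered 64 of 128 bases of the Pcdh8 stretch, those of replicate 2 covered 45, and 44 bases were covered in both. At Pcdh17 the replicates covered 62 and 66 of 242 bases, with only 20 in common. At Pcdh10 they covered 95 and 96 of 237 bases, with 48 in common. At Pcdh9 they covered 79 and 86 of 300 bases, with 55 in common. The footprints of the replicates therefore coincided most at Pcdh8 and least at Pcdh17 among these 4 promoters.

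Sequence letters were then read in the RefSeq promoter windows of the GRCm38 assembly, which run from 250 bases before to 50 bases after a start. Of the 9 members, 8 had such a window. The letters CCAAT, searched on both strands, were found in 7 of these 8 (all but Pcdh7), and in 37.4% of 32851 windows overall. CCAAT and the TATA box (TATAAA) were added to the search after the sequences had been read, so these counts are a description only. The GC box letters GGGCGG, searched on both strands, were in 3 of 8 member windows (Pcdh10, Pcdh17 and Pcdh18) and in 35.7% of all windows. In Pcdh10 and Pcdh17 the GC box lay at nearly the same place, with its first base at positions -137 and -131 relative to the RefSeq start. Footprints of both replicates touched it in both genes, whereas none touched that of Pcdh18. The Pcdh10 box lies outside the narrower promoter peak of replicate 2. It reads as CCGCCC within the capitals of the Pcdh10 and Pcdh17 sequences above. TATAAA was in 2 of 8 member windows, Pcdh8 and Pcdh15, and in 13.6% of all windows. In Pcdh8 it began at position -30 and was touched by a footprint in both replicates. In Pcdh15 it began at position -33, with no footprint in either. The Pcdh15 window, with its CCAAT and TATAAA letters, is chr10:73821617-73821916, at the RefSeq start at 73821867. This start lies outside the shared upstream Pcdh15 peak shown further below. The letters and the lack of a footprint therefore do not describe that upstream peak.

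Further facts of the series touch the values that follow. Replicate 2 had more of everything, with 66512 peaks against 29700 in the shorter of the 2 peak lists deposited per library (2.24-fold), 117579 against 56015 in the longer list (2.10-fold) and 250543 against 112826 footprints (2.22-fold). The peak signal is a cleavage density that the authors normalized for read depth. All signals were whole multiples of 0.0118 in replicate 1 and 0.00971 in replicate 2, to within 0.02 of a step or the last printed digit, which would be 84.9 and 103 M tags if the step is 1 tag. As a check of the tissue, promoter peaks of both replicates were found at 2 of 5 excitatory neuron markers (Tbr1, with 9 shared peaks, and Camk2a), 2 of 5 inhibitory neuron markers, 3 of 4 astrocyte markers and 2 of 4 oligodendrocyte lineage markers. None of the 3 microglia, 3 vascular, 3 liver and 3 muscle markers had them. Away from promoters some of these had shared peaks, namely the microglia genes Cx3cr1 (8) and P2ry12 (1), the vascular genes Flt1 (3) and Pecam1 (2), the muscle gene Ckm (2) and the liver gene Apoa1 (1). No peak of the shorter list was found in either replicate at the inhibitory neuron gene Gad2, the endothelial gene Cldn5, the liver gene Ahsg or the muscle genes Myod1 and Myh4, while the inhibitory neuron gene Maf had 4 shared peaks. In bulk tissue, more cells with an open site and more cleavage per cell cannot be told apart.

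A promoter peak, within 500 bp of an annotated transcription start site (TSS), was present in both replicates at 7 of the 9 members. Over all protein-coding genes the share was 50.8%. The promoter peaks of the replicates overlapped each other at 6 members (50.6% of all genes), since those of Pcdh1 stood at different starts. Pcdh18 and Pcdh20 had a promoter peak only in replicate 2. In the longer list all 9 members had one in both replicates, against 57.9% of all genes.

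The member windows held 63 peaks in the first replicate and 82 in the second (72.5 ± 13.4, mean and SD, n = 2). This 1.30-fold excess in replicate 2 was smaller than the 2.24-fold excess of its whole list, which also holds peaks outside gene windows. Over the windows of all protein-coding genes the peaks numbered 35526 and 67221, a peak counting once per window. When the list of replicate 2 was shortened by signal to the length of that of replicate 1, the member ratio fell below 1, to 0.587. The whole lists are then equal in length. With the 50% of peaks of highest signal of each list, which keeps the ratio of the whole lists, the member ratio was 2.86. Promoter peaks numbered 21 and 26. Of the member peaks, 44 of replicate 1 and 36 of replicate 2 overlapped a peak of the other by at least 1 bp. Some rows of a list overlap or nest, and merging them left 52 and 79 regions. The median member had 5 shared peaks and the median protein-coding gene 1. At least 5 shared peaks were found at 5 of 9 members (Pcdh17 with 13, Pcdh7 with 10, Pcdh15 with 7, Pcdh9 with 6 and Pcdh10 with 5), against 4.31% of all genes. Long genes have wider windows, and Pcdh7, Pcdh9 and Pcdh15 are among the longest here. Per 100 kb of window, Pcdh9 had 0.892 and 2.01 peaks and Pcdh15 0.509 and 1.15, below the medians over all genes of 2.27 in replicate 1 and 4.28 in replicate 2. Pcdh7 had 2.53 and 4.14, close to these medians. The shorter genes Pcdh10, with 16.8 and 6.47, and Pcdh17, with 12.1 and 7.80, lay above them.

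**Figure D1:**
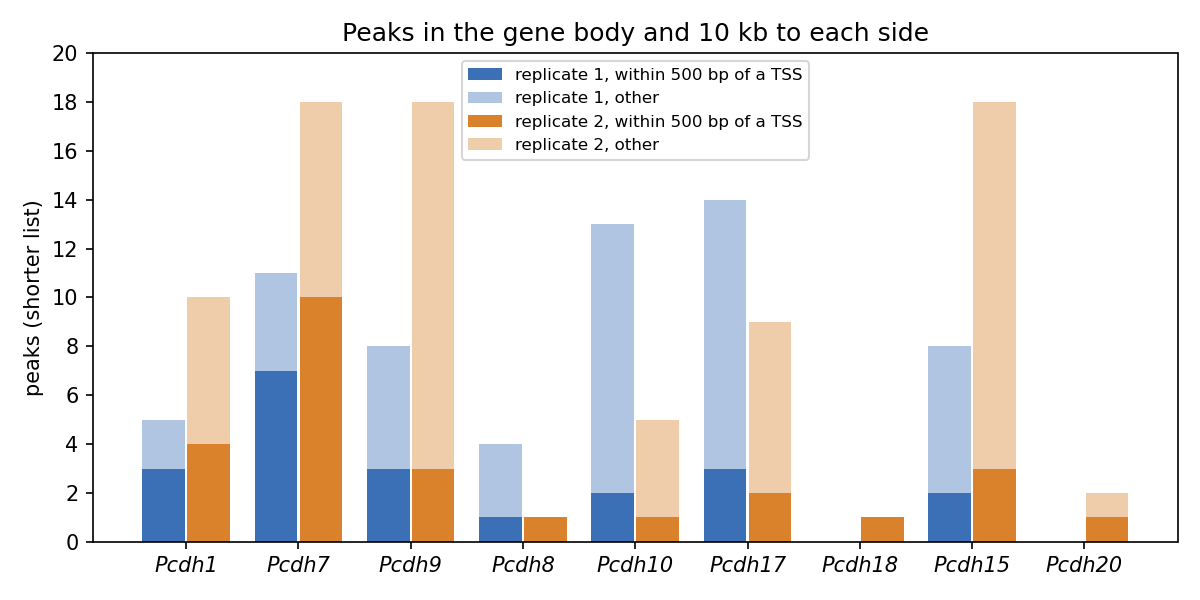
Peaks of the shorter list per member window, flanks of 10 kb included (vertical axis, number of peaks), with replicate 1 in blue and replicate 2 in orange; dark parts are peaks within 500 bp of a TSS and pale parts all others. Pcdh8, Pcdh10 and Pcdh17 have more peaks in replicate 1 (4, 13 and 14) than in replicate 2 (1, 5 and 9), and the other 6 members have more in replicate 2.

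Pcdh10 had the highest promoter signal of the members in both replicates. Pcdh10 had 4.10 in replicate 1 and 7.23 in replicate 2 (5.67 ± 2.22, mean and SD, n = 2), higher than 92.0% and 92.6% of genes with a promoter peak. Pcdh9 had 3.004 and 6.84, Pcdh17 had 3.30 and 5.61, and Pcdh8 had 2.67 and 4.53. Pcdh9 and Pcdh17 changed places between the replicates, with means of 4.92 ± 2.72 and 4.46 ± 1.64. These SDs include the higher promoter signal of replicate 2 (median log2 ratio of 0.79 over 11152 genes). They therefore do not measure the difference between the genes. These 4 members lay above the medians over all genes with a promoter peak, 2.26 and 3.50.

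By the GENCODE starts used here, the other members lay below those medians. Pcdh7 had 1.73 and 2.20 (1.97 ± 0.334, mean and SD, n = 2). Pcdh15 had 0.860 and 1.57, and Pcdh1 had 0.778 and 1.84. For Pcdh15 this depends on the annotation. The peak over its upstream RefSeq transcript starts, described below, had 1.94 and 3.55, the latter above the replicate 2 median of 3.50. Pcdh18 and Pcdh20, each with a promoter peak only in replicate 2, had 1.81 and 1.33 there. In the longer list the values of replicate 1 were 0.966 for Pcdh18 and 0.801 for Pcdh20.

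**Figure D2:**
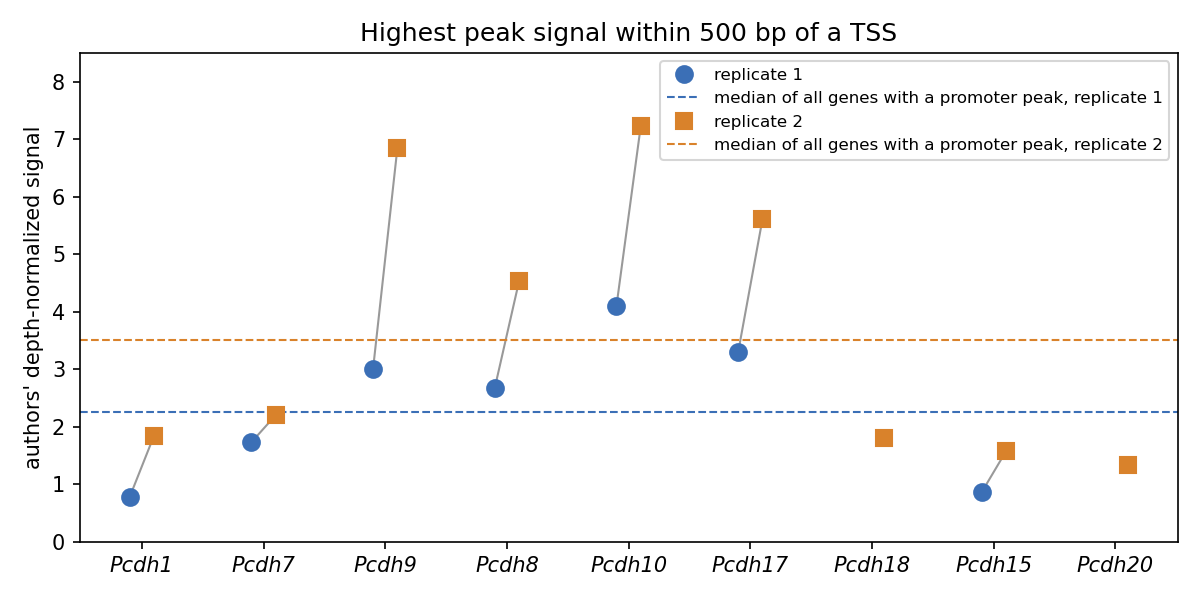
Highest signal of a peak of the shorter list within 500 bp of a TSS (vertical axis, authors' depth-normalized signal) for each member, with replicate 1 as circles and replicate 2 as squares, joined by a line where both exist; dashed lines are the medians of all genes with a promoter peak, 2.26 and 3.50. By these GENCODE TSSs, Pcdh8, Pcdh9, Pcdh10 and Pcdh17 lie above the median of their replicate and the other members below it.

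Among the delta-1 genes, Pcdh7 had its peaks in 1 dense stretch around the start. All 11 peaks of replicate 1 lay between positions -2720 and 1893 bp relative to the most upstream TSS, with signals from 0.766 to 1.90. Replicate 2 had 18 peaks, 15 of them in a tract of 8.23 kb whose members were at most 1 kb apart. The tract of replicate 1 was 4.61 kb. The median of the longest tract over genes with a promoter peak was 420 bp in replicate 1 and 680 bp in replicate 2, and the Pcdh7 tracts were longer than those of 99.9% and 99.97% of these genes. The highest peak of Pcdh7 was no promoter peak: it was centred at position -2106 bp in replicate 1, at chr5:57715621-57716100, where the replicates had signals of 1.90 and 3.92. An opposite-strand transcript, 4932441J04Rik, starts 47 bp from a Pcdh7 start.

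Pcdh9, a cell adhesion protein of cortical neurons, had 8 peaks in replicate 1 and 18 in replicate 2. More than 5 kb from any of its starts there were 3 peaks in replicate 1 and 13 in replicate 2. Most of these replicate 2 peaks were weak, with signals from 0.427 upward. A peak centred 1070 bp downstream of a TSS, at chr14:93884601-93884756, was present in both, with signals of 1.26 and 2.76 (log2 ratio of replicate 2 to replicate 1 of 1.13).

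The intronic Pcdh9 peak at chr14:93214861-93215160 went the other way. Its signal was 4.28 in replicate 1, the highest of any member peak in that library, and 2.35 in replicate 2, a log2 ratio of -0.86. Over all 27469 shared peaks the median log2 ratio was 0.69 ± 0.35 (SD over peaks), and 21 peaks (0.0764%) had a ratio at or below that of the Pcdh9 peak. All of its bases are marked as repeats in the reference, which held for 29 of the 27469 shared peaks (0.106%). Of its 269 words of 32 bases, 88.1% also occur elsewhere in the genome, at a median of 351 places per word. The only other member peak with such words was the Pcdh10 peak at chr3:45375861-45376060, with 14 of 169 words, and its log2 ratio was -0.01. The sources used here do not say how reads that align to several places were treated, and the part of repeated sequence in these ratios was not tested. No sequence of this repeat is shown.

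Pcdh1, an adhesion protein also known from airway epithelium, is on chromosome 18 at 38185914 to 38212053, on the minus strand, with 6 annotated starts. Its promoter peaks in replicate 1 numbered 3, all 2024 to 2892 bp downstream of the most upstream TSS, with signals from 0.471 to 0.778. In replicate 2 they numbered 4 and lay at other starts, with highest signals of 1.84 and 1.69. The replicates shared 2 peaks, neither within 500 bp of a TSS. The higher of these was centred at positions -808 and -828 bp relative to the most upstream TSS, with 2.54 in replicate 1 and 3.41 in replicate 2. Thus the most accessible shared element of Pcdh1 lay outside its promoter windows.

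Among the delta-2 genes, Pcdh8, Pcdh10 and Pcdh17 had fewer peaks in replicate 2 than in replicate 1, whereas the whole list of replicate 2 is longer. For Pcdh17 this rests on rows that overlap or nest, and with such rows merged it had 9 regions in each replicate, while Pcdh8 kept 4 and 1 and Pcdh10 had 12 and 4. Of the 7 members with a peak in replicate 1, these 3 had fewer rows in replicate 2 (6.57% of genes with a replicate 1 peak) and fewer bases in peaks (18.8%). Pcdh8, an activity-regulated protocadherin of dendritic spines, had 4 peaks covering 847 bp in replicate 1 and 1 peak of 260 bp in replicate 2. Pcdh10, which acts in axon outgrowth and synapse elimination, had 13 peaks covering 2846 bp and 5 covering 1421 bp. Pcdh17, which acts at synapses of corticobasal circuits, had 14 peaks covering 4479 bp and 9 covering 3519 bp. In the longer list the rows numbered 7 and 2 for Pcdh8, 16 and 13 for Pcdh10, and 18 and 12 for Pcdh17. Merged, the last order turned, with 11 and 12 regions for Pcdh17. It was not kept among the 50% of peaks of highest signal, where the counts of replicates 1 and 2 were 1 and 1, 2 and 5, and 2 and 7. With equal list lengths, Pcdh7 (11 and 8), Pcdh9 (8 and 4) and Pcdh15 (8 and 5) also had fewer peaks in replicate 2.

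The signal did not follow these counts. At every promoter peak shared by the replicates in the 3 genes, the signal was higher in replicate 2. This held for 96.4% of all shared peaks, so it is not particular to these genes. Some of the Pcdh17 promoter peaks were also paired with the same replicate 2 peak. Of the 8 Pcdh10 peaks of replicate 1 without a partner in the shorter list of replicate 2, all 8 overlapped a peak of its longer list, and 7 of these had a higher signal there. Several of the 8 met the same replicate 2 signal of 1.24, and the peak at chr3:45381181-45381400 lies inside that at chr3:45381101-45381640. These rows are therefore not 8 separate elements. With centres 1384 to 2972 bp downstream of the Pcdh10 TSS, replicate 1 had 6 peaks with signals from 0.766 to 1.17, and the overlapping peaks of the longer list of replicate 2 had 1.12 to 1.24. Over all members, 9 of 19 such replicate 1 peaks (47.4%) overlapped a longer-list peak of replicate 2, of which 8 had a higher signal. Over the whole list 475 of 2231 did (21.3%), with a higher signal at 244 of the 475. The members' share comes from Pcdh10, since 1 of the 11 peaks of the other members (9.09%) overlapped one. The authors' table of cleavage rates, which gives an FDR per interval, followed the shorter list at Pcdh8 and Pcdh10: bases with an FDR of 0.001 or less numbered 1480 and 438 in the Pcdh8 window and 4710 and 2388 in the Pcdh10 window. At Pcdh17 they numbered 5180 and 5423. Over the genome replicate 2 had more, with 22620830 such bases against 9402869.

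Pcdh17 had 13 shared peaks counted over rows of replicate 1, and 99.95% of protein-coding genes had fewer. Counted over rows of replicate 2 it had 8, as did Pcdh7, and in the longer list Pcdh7 and Pcdh9 had 17 each over rows of replicate 1 and Pcdh17 had 15. Its tract ran from position -902 to 5093 bp relative to the TSS in replicate 1, a length of 5996 bp with 71.4% of bases in peaks. In replicate 2 it was 6000 bp long, with 52.9% of bases in peaks. The Pcdh10 tract was 5.78 kb in replicate 1 and 2.52 kb in replicate 2, where it ended at the promoter peak. That promoter peak was 300 bp wide in replicate 1 and 60 bp wide in replicate 2, where its signal was higher.

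**Figure D3:**
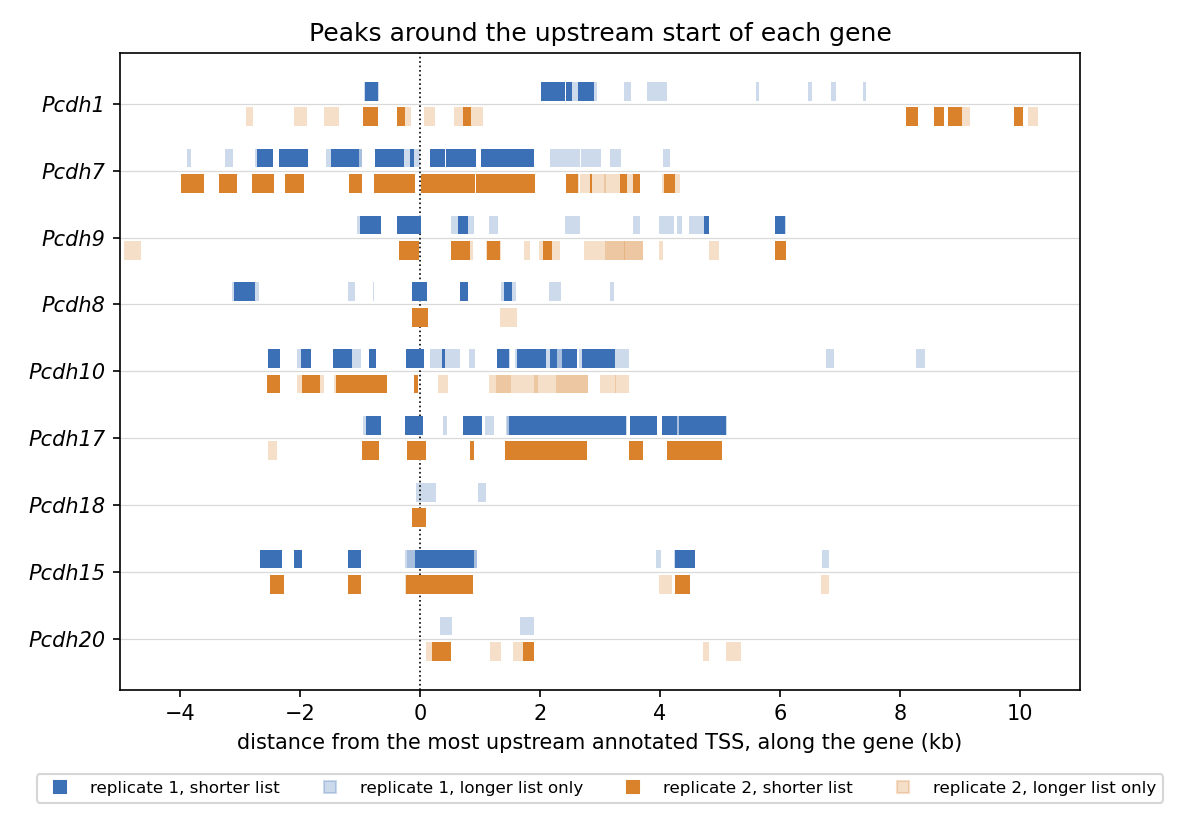
Peaks of each member from 5 kb upstream to 11 kb downstream of its most upstream annotated TSS (horizontal axis, kb along the direction of the gene; dotted line at the TSS), with replicate 1 in blue above replicate 2 in orange; solid blocks are peaks of the shorter list and pale blocks peaks found in the longer list only. The peaks downstream of the Pcdh10 TSS are solid in replicate 1 and pale in replicate 2, and the tracts of Pcdh7 and Pcdh17 are solid in both.

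A further Pcdh17 peak lay past the annotated end of the gene, with the same first and last base in both replicates. It is shown because it is a shared member peak far from any Pcdh17 start, and capitals again mark footprints of either replicate. On mm10 it is chr14:84547601-84547800, plus strand, with signals of 1.13 and 1.59.
Pcdh17 downstream peak: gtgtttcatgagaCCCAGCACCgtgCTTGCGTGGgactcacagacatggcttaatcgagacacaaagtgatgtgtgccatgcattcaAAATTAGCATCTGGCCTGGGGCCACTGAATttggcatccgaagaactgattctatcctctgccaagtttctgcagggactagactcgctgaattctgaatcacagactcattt

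Footprints of replicate 1 covered 27 of these 200 bases and those of replicate 2 covered 39, with 18 in common. Its centre was 104138 bp downstream of the most upstream start. No base of it is marked as a repeat.

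Pcdh18, a binding partner of the adaptor Dab1, had a single peak, which lay over its start in replicate 2 and had a signal of 1.81. In replicate 1 the lowest FDR within 500 bp of a start was 0.0049, and 347 bases of the promoter windows had an FDR of 0.05 or less, none of them 0.001 or less. None of its 6 and 3 footprints overlapped between the replicates. Over the genome 54.5% of replicate 1 and 23.5% of replicate 2 footprints overlapped one of the other replicate, and so few footprints say little about Pcdh18. Pcdh20, which acts in the positioning of cortical neurons, had 2 peaks in replicate 2 and a lowest promoter FDR of 0.00548 in replicate 1. Its promoter had the lowest CpG ratio of the members, 0.402 observed to expected within 500 bp of the first start. The ratio of the other members ranged from 0.652 (Pcdh10) to 0.887 (Pcdh7), and the median of all protein-coding genes was 0.552.

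Pcdh15 had its highest shared peak at the upstream RefSeq transcript starts. Both replicates had promoter peaks at the GENCODE start at 73099342 of chromosome 10, the highest being 0.860 and 1.57. At the RefSeq transcript start at 73821867 there was a peak only in replicate 2, with a signal of 0.835. The longer list of replicate 1 had one of 0.707 there. The highest shared peak, chr10:73098141-73098360, had the same ends in both replicates and signals of 1.94 and 3.55. It is centred at position -1092 bp relative to the first GENCODE start. It holds the starts of RefSeq coding transcripts at 73098314 and 73098321. Its bases before the first of these, chr10:73098141-73098313 on the plus strand of mm10, are shown because they are the most accessible stretch of Pcdh15 in both libraries. Capitals mark footprints of either replicate.
Pcdh15 upstream peak: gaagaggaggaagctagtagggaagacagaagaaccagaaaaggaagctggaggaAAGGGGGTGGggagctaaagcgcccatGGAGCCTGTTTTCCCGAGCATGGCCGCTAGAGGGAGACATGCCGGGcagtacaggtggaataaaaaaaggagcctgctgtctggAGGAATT

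Of these 173 bases, footprints covered 59 in replicate 1 and 46 in replicate 2, with 42 in common. Elsewhere in the gene, more than 5 kb from any start, Pcdh15 had 1 peak in replicate 1 and 10 in replicate 2, with signals from 0.379 to 1.11. The only shared one was at chr10:73564361-73564480, with 0.789 and 1.11.

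At the 44 shared member peaks the log2 ratio (replicate 2 over replicate 1) had a median of 0.67 ± 0.39 (SD over peaks), and at all shared peaks one of 0.69 ± 0.35. Promoter peaks of members had a median of 0.76 (16 peaks) and other member peaks 0.53 (28 peaks). These are rows of replicate 1, some of them nested, and several were paired with the same replicate 2 peak. At Pcdh15 the replicate 2 peak chr10:73099121-73100220 entered both classes. The peaks counted in this paragraph are therefore not all separate elements. Only 2 of the 44 were lower in replicate 2, namely the Pcdh9 and Pcdh10 peaks with repeated words. Over all shared peaks 3.60% were lower. Within the members the medians ran from 0.40 at Pcdh9 (6 peaks) to 0.87 at Pcdh15 (7 peaks).

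**Figure D4:**
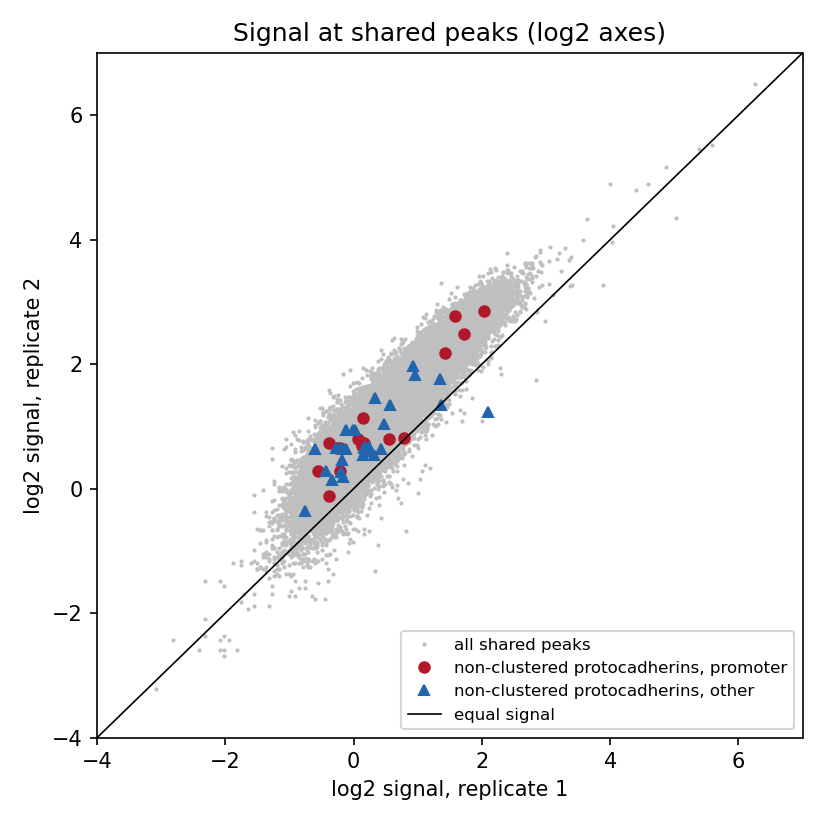
Log2 signal of each shared peak in replicate 1 (horizontal) and replicate 2 (vertical), with all 27469 shared peaks in grey, member promoter peaks as red circles and other member peaks as blue triangles; the line marks equal signal. Of the 44 member peaks, 42 lie above the line, and the triangle well below it is the intronic Pcdh9 peak.

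Most member peaks lay near a start in replicate 1. The share within 5 kb of the gene's own TSS was 88.9% in replicate 1 and 62.2% in replicate 2, and over all protein-coding genes 63.6% and 53.5%. Of the member peaks that were not promoter peaks, 1 in replicate 1 and 2 in replicate 2 lay within 500 bp of the start of another gene. Promoter peaks were left out of this count. An opposite-strand gene started within 500 bp of Pcdh1 (2010320O07Rik, 10 bp), Pcdh7 and Pcdh10 (2610316D01Rik, 138 bp), or 3 of 9 members, against 19.5% of all genes.

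The 9 windows held 172 footprints in replicate 1 and 301 in replicate 2. Within peaks there were 7.26 and 9.13 footprints per kb, against 11.7 and 11.8 over all peaks. Of the replicate 1 footprints in the windows, 36.6% overlapped one of replicate 2, against 54.5% over the genome. In the other direction the shares were 21.6% and 23.5%. The counts per gene ran from 5 and 14 at Pcdh20, and 6 and 3 at Pcdh18, to 30 and 37 at Pcdh17 and 29 and 71 at Pcdh9.

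In the 36 merged shared member regions, a median of 259 bp wide against 200 bp over all 26774 shared regions, exact motif letters were searched on both strands. The GC box was in 11 regions (30.6%, against 37.1% of all regions), and 7 of its matches were centred in a footprint of either replicate. Only the Pcdh10 and Pcdh17 boxes described above were so in both replicates. The 7 include a match in the repeat-masked Pcdh9 peak. The same count over all regions is not given here. The CTCF letters (CCANNAG, any 2 bases, then GGC) were in 0 of 36 regions and in 14.0% of all regions. The letters GGACAGC, part of the REST motif, were in 4 regions (11.1%, against 6.04%) and the E-box CAGCTG in 4 (11.1%, against 15.2%). TGACGTCA, the cAMP response element, was in 0 of 36 regions and in 2.12% of all. A match is a description of letters, and its absence says only that these letters are not in these windows.

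Genes that act with the protocadherins were read in the same way, from lists of names. Of 9 genes of the WAVE complex and partners of the protocadherin tails, 8 had a promoter peak in both replicates, with a median of 2 shared peaks. Nckap1 and Cyfip2, WAVE complex subunits, and Taok2, a kinase linked to Pcdh8, had 3 shared peaks each. Cyfip2 was the gene without a promoter peak in replicate 1. Of 21 cadherins and catenins, 17 had a promoter peak in both, with a median of 2 shared peaks and the most at Ctnna2 (12), Cdh13 (11) and Cdh4 (7). Beside these sets stand all protein-coding genes, of which 50.8% had a promoter peak in both, with a median of 1 shared peak.

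The partners of Pcdh15 in hair cell mechanotransduction had a promoter peak in both replicates at 3 of 9 genes and in neither at 6 of 9, beside 50.8% of all genes with one in both. Cdh23, the partner of Pcdh15 in the tip link, had 7 shared peaks and promoter signals of 0.872 and 1.84. At the GENCODE starts of Pcdh15 the signals were 0.860 and 1.57, and at its upstream RefSeq transcript starts 1.94 and 3.55. Myo7a had 3 shared peaks and Ush1c had 2. Of the 3 remaining non-clustered protocadherins, Pcdh11x had 1 shared peak and promoter signals of 0.778 and 1.22. Pcdh19 had a promoter peak only in replicate 2, with 2.51, and Pcdh12 had none.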

How the data were processed

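The authors deposited, per library, a shorter and a longer peak list, footprints and a table of cleavage rates, made on mm10 from that library's own alignments, per the file headers and text listings. The sources used here do not give the aligner, callers or thresholds. The signal per peak was normalized for read depth by the authors. The p-value column of the deposited cleavage-rate table holds an FDR, listed up to 0.05. The score deposited for footprints is 0.01 in every row, so only their positions were used.

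Peaks and footprints overlapping each gene body, extended by 10 kb both ways, were counted with Python 3.11.15, numpy 2.4.6 and pysam 0.24.0. A promoter peak overlapped the 500 bp to each side of any GENCODE M21 TSS. Peaks sharing at least 1 bp were called shared, and each replicate 1 peak was paired with the replicate 2 peak of largest overlap. The shorter list was used unless the longer is named. Sequence came from GRCm38 and from RefSeq tables of that assembly. Counting was tested on simulated data, with exact counts for 200 of 200 genes.

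All 9 members are named, and from each other list the 3 genes with most shared peaks. Marker genes without peaks, and those named as examples, were chosen after their values were seen. The members and lists were chosen with earlier results of these data known. Other lists, gene and TSS windows, overlap rules and leaving out each replicate were tried as alternatives.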

Additional observations from a re-analysis of the deposited data

How the results depend on the processing

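Of 49 alternative values over 6 results, 38 kept their size or direction, 10 moved and 1 reversed. The reversal was the ratio of member peaks of replicate 2 to replicate 1, which went from 1.30 to 0.587 with equal list lengths, and which rose to 2.86 for the top 50% by signal. The median of 5 shared peaks per member became 12 in the longer list, 2 for the top 50% by signal, 1 in the gene body alone and 3 for peaks away from member TSSs. The mean of 72.5 peaks per replicate became 123.5 in the longer list and 27 for the top 50% by signal. The mean of 236.5 footprints became 155 when only those in a peak were counted. Without replicate 1 or without replicate 2, members with a promoter peak numbered 7 to 9, the median of peaks per member (no longer shared) was 8 to 9, the peaks numbered 63 to 82 and the footprints 172 to 301. The median log2 ratio stayed between 0.52 and 0.76 in every alternative run, including that without the repeat-masked Pcdh9 peak (0.71). The merged rows, the overlap of promoter peaks, the removal of that Pcdh9 peak and all alternatives of the peak ratio were chosen after seeing the data.

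No paired analysis was possible because the labels give a single group. With 2 libraries the SD rests on 2 values. The library totals were not analysed here, and no counting interval is given for a signal.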
